A study of Mus musculus with 12 samples.

Results

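Interferon-stimulated genes are the genes that cells switch on when they are exposed to interferon, and 50 of them were followed across 12 RNA-seq libraries of U2OS, a human osteosarcoma cell line. The 50 genes were listed by function, not by a threshold on these values, and were found in the table of 58735 genes by their full names. The comparisons ask whether U2OS cells given a small interfering RNA, or made to overexpress a long noncoding RNA, raised the genes of an innate immune response. The 4 groups held 3 libraries each and consisted of blank U2OS cells, cells given the SRSF1 siRNA siSRSF1-2, cells given a different SRSF1 siRNA, siSRSF1-3, and cells overexpressing the long noncoding RNA LINC01134 (OE-LINC01134). SRSF1 is a serine/arginine-rich splicing factor. No library of a control siRNA or an empty vector was analysed here, so every difference from blank cells holds the effect of delivery as well as that of the targeted RNA. The labels give U2OS as the cell line of all 12 libraries, and the study's results also name U2OS for the sequencing, whereas its methods place the siRNA transfection, done with a lipid reagent, in the osteosarcoma line HOS. A difference of cell line between the siRNA and blank libraries was not tested here. How LINC01134 was overexpressed is not given in the sources used here. The methods speak of biological replicates in a number other than that of the libraries here and do not tie the libraries to separate cultures, so the p-values measure only the spread between these libraries. The labels name Mus musculus as the organism, whereas every gene identifier in the table is a human Ensembl identifier.

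Cells sense RNA of viral form in the cytoplasm through the helicases RIG-I (encoded by DDX58) and MDA5 (encoded by IFIH1) and the kinase PKR (encoded by EIF2AK2), and in endosomes through Toll-like receptors, of which TLR3 binds base-paired RNA such as siRNA duplexes. RIG-I and MDA5 signal through MAVS and the kinase TBK1 to IRF3, which switches on the gene of interferon beta, IFNB1. Secreted type I interferon binds the receptor chains IFNAR1 and IFNAR2, whose kinases JAK1 and TYK2 activate STAT2. STAT2 acts with IRF9 in a complex of transcription factors that drives the interferon-stimulated genes. Many of the induced proteins block steps of viral replication, several of the sensors and transcription factors are themselves induced, and USP18 closes the circuit by blocking the receptor.

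Values are FPKM, fragments per kilobase of gene length at a common library size, which allows levels of different genes to be set side by side. A gene was tested where its mean over the 12 libraries was at least 0.5 FPKM, which 17538 genes in all and 33 of the 50 interferon-stimulated genes reached. A gene was called higher or lower where its fold change on log2(FPKM + 0.1) was over 2-fold (over 1 on the log2 scale) with an adjusted p under 0.05, by limma with Benjamini-Hochberg adjustment over the 17538 genes. The other 17 genes lay below this level and are described by their values only. Since the filter used the mean of all libraries, a gene near it passed through the groups in which it was high: IRF7, at 0.501 FPKM over all libraries, was below 0.5 FPKM in blank and siSRSF1-3 cells, and OAS1, at 0.525 FPKM, was below it in all groups but blank. The same limit holds for IFI35, at 0.415 FPKM in blank cells. It also holds for IRF9, USP18 and SAMD9L, at 0.267, 0.270 and 0.4997 FPKM in siSRSF1-3 cells.

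The libraries held 26237763 to 32954539 reads on genes. SRSF1 measured 35.9, 19.8 and 20.5 FPKM in blank replicates 1 to 3, 7.09, 7.46 and 7.41 in siSRSF1-2 and 3.33, 6.81 and 7.90 in siSRSF1-3, and LINC01134 measured 0.791, 0.519 and 0.497 FPKM in blank and 891, 1279 and 878 in OE-LINC01134, so both checks went the way of the labels. Blank replicate 1 and OE-LINC01134 replicate 2 stood apart from the other 2 libraries of their groups, and the 3 siSRSF1-3 libraries differed widely among themselves. The gene values of blank replicates 2 and 3 differed by a median of 2.12 times the counting noise, against 17.0 and 17.7 times for blank replicate 1 with either of them, and those of OE-LINC01134 replicates 1 and 3 by 1.88 times against 17.9 and 18.4 for replicate 2. Pairs of the 3 siSRSF1-2 libraries differed by 2.23, 2.43 and 2.14 times, so the calls with siSRSF1-2 rest on a narrow spread. The siSRSF1-3 replicates 1 and 2 differed by 13.9 times, and replicate 3 by 45.0 and 24.8 times from them, while replicates 1 and 2 had FPKM sums of 611084 and 410612 where the other 10 libraries had 281051 to 324607. Markers of mesenchymal cells (VIM, SPARC, COL1A1, RUNX2 and ALPL) were detected in every library, COL1A2 lay at or near 0, and the leukocyte markers PTPRC, CD3E, CD68 and CD14 did not exceed 0.164 FPKM in any library. The epithelial markers EPCAM, at 0.918 to 2.43 FPKM, and CDH1, at 0.345 to 0.862, were also detected in every library, and KRT19 did not exceed 0.240. Of the endothelial markers, PECAM1 stood at 0.140 to 0.368 FPKM and CDH5 did not exceed 0.214. VIM, the mesenchymal intermediate filament gene, differed between libraries: it stood at 244, 181 and 195 FPKM in blank, 79.1, 79.1 and 77.3 in siSRSF1-2, 183, 171 and 79.4 in siSRSF1-3 and 68.7, 248 and 69.4 in OE-LINC01134 cells. The part of these library and marker differences in the values below was not tested, and in bulk samples fewer cells of a type and less RNA per cell cannot be told apart.

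In blank U2OS cells the most abundant interferon-stimulated genes were LGALS3BP, a secreted galectin-3-binding glycoprotein, at 90.7 ± 1.26 FPKM (SD, n = 3), IFITM3, a membrane protein that blocks viral fusion, at 53.9 ± 0.854, IFI6, an inducible mitochondrial and endoplasmic reticulum protein, at 45.6 ± 8.83, ADAR, the adenosine-to-inosine RNA editing enzyme, at 22.9 ± 4.09, and ISG15, a ubiquitin-like modifier, at 20.7 ± 1.40. ADAR and ISG15 did not differ beyond their spread, while LGALS3BP exceeded IFITM3 in each blank library. Several defining genes of the response were scarcely expressed: MX1, a dynamin-like GTPase against influenza virus, stood at 0.0754, 0.139 and 0.174 FPKM in the blank libraries, and RSAD2, which encodes viperin, at 0.0224, 0.0509 and 0.0316. IFNB1 had 11 reads over all 12 libraries, of which 7 were in blank cells, and IFNG had 0 reads, which allows up to 3 reads per library.

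**Figure D1:**
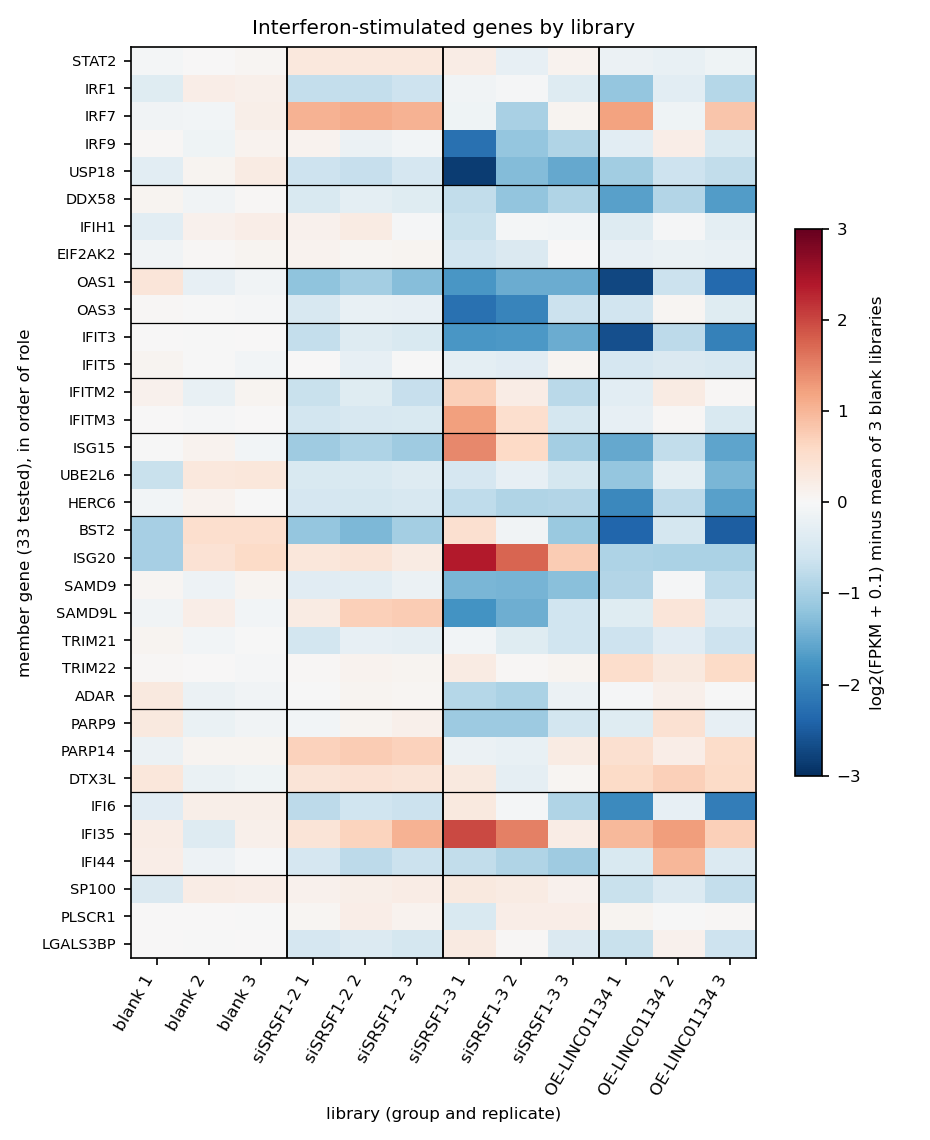
Difference of each library from the mean of the 3 blank libraries, on log2(FPKM + 0.1), for the 33 interferon-stimulated genes tested (vertical axis, in order of role, with lines between roles) in the 12 libraries (horizontal axis, by group and replicate). Red is higher and blue lower than blank. OAS1, IFIT3, DDX58 and HERC6 were blue in all 9 treated libraries, OE-LINC01134 replicate 2 was paler than replicates 1 and 3 for these genes, and ISG15, IFITM3 and ISG20 were red in siSRSF1-3 replicates 1 and 2.

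With siSRSF1-2, 1 of the 33 genes tested rose and 2 fell. IRF7, the transcription factor that amplifies interferon transcription, rose, while OAS1, which makes the second messenger that activates RNase L, and ISG15 fell. These shares, 3.03% higher and 6.06% lower, stand beside 2.22% and 2.73% of all genes tested. The median log2 fold change of the 33 genes was -0.28, with 14 positive and 19 negative, beside a median of 0.019 over all genes tested. With p left unadjusted and the fold minimum kept, the counts were 1 higher (3.03%, beside 3.06% of all genes) and 3 lower (9.09%, beside 3.43%), BST2 being added, and voom on recovered reads called 1 higher (3.03%, beside 2.59%) and 2 lower (6.06%, beside 3.01%). Without the fold minimum, 3 genes were higher (9.09%, beside 14% of all genes tested) and 11 were lower (33.3%, beside 12.8%) at an adjusted p under 0.05. Every siSRSF1-2 library lay above every blank library in 8 genes (24.2%, beside 25.3% of all genes) and below in 16 (48.5%, beside 24.2%).

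ISG15 lies at chr1:1001138-1014540, plus strand in the coordinates of the table, whose human genome build is not given in the sources used here. It measured 20.3, 22.2 and 19.5 FPKM in blank, 9.73, 10.8 and 9.80 in siSRSF1-2, 56.3, 31.3 and 10.2 in siSRSF1-3 and 7.08, 12.3 and 6.80 in OE-LINC01134 replicates 1 to 3. The siSRSF1-2 and OE-LINC01134 libraries all lay below blank, whereas siSRSF1-3 replicates 1 and 2 lay above blank and replicate 3 below it. The log2 fold change was -1.02 (SE 0.080, adjusted p = 0.00133) with siSRSF1-2, 0.34 (SE 0.57, adjusted p = 0.696) with siSRSF1-3 and -1.29 (SE 0.23, adjusted p = 0.0535) with OE-LINC01134. The siSRSF1-2 call sat close to the 2-fold limit and ended under 7 alternatives, including without blank replicate 2, where the log2 fold change was -0.97, and without siSRSF1-2 replicate 1, where it was -0.996.

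OAS1 lies at chr12:112906777-112933222, plus strand. Its level was 1.42, 0.882 and 0.983 FPKM in blank, 0.408, 0.479 and 0.382 in siSRSF1-2, 0.247, 0.318 and 0.318 in siSRSF1-3 and 0.0767, 0.651 and 0.134 in OE-LINC01134 cells. All 9 treated libraries lay below the lowest blank library, with OE-LINC01134 replicates 1 and 3 lowest and replicate 2 nearest to blank. The log2 fold change was -1.17 (SE 0.23, adjusted p = 0.0159) with siSRSF1-2, -1.58 (SE 0.36, adjusted p = 0.0701) with siSRSF1-3 and -1.90 (SE 0.58, adjusted p = 0.11) with OE-LINC01134. Only the first passed the test, and it ended without blank replicate 1, where the log2 fold change was -0.98, and without any 1 of the 3 siSRSF1-2 libraries, where the adjusted p was 0.0528 to 0.0664.

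IRF7 lies at chr11:612553-615999, minus strand. It stood at 0.302, 0.308 and 0.384 FPKM in blank, 0.782, 0.837 and 0.783 in siSRSF1-2, 0.291, 0.120 and 0.354 in siSRSF1-3 and 0.893, 0.292 and 0.666 in OE-LINC01134 cells. Each siSRSF1-2 library was above each blank library, OE-LINC01134 replicates 1 and 3 were as high as siSRSF1-2 or nearly so, and OE-LINC01134 replicate 2 and the siSRSF1-3 libraries were within or below the blank range. The log2 fold change was 1.07 (SE 0.21, adjusted p = 0.0155) with siSRSF1-2, -0.34 (SE 0.55, adjusted p = 0.685) with siSRSF1-3 and 0.64 (SE 0.43, adjusted p = 0.371) with OE-LINC01134. The siSRSF1-2 call ended without any 1 of the 3 siSRSF1-2 libraries, where the adjusted p was 0.0664 to 0.0794.

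**Figure D2:**
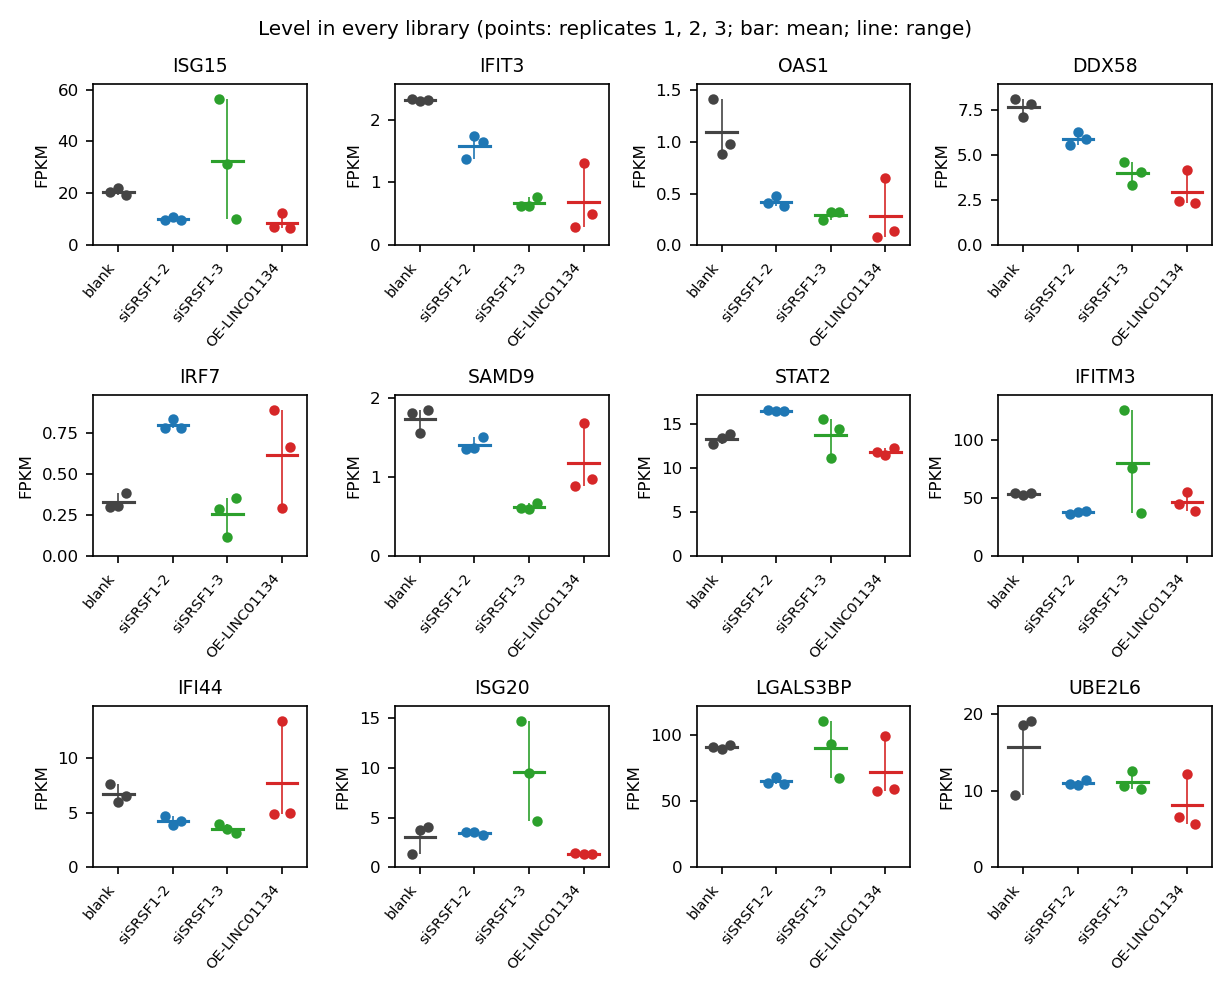
FPKM of 12 interferon-stimulated genes (vertical axes, linear from 0) in the 4 groups (horizontal axes); points are replicates 1, 2 and 3 from left to right, the bar is the mean and the line the range. The 3 siSRSF1-2 points lie close together in each panel, ISG15, IFITM3 and ISG20 spread widely in siSRSF1-3, and OE-LINC01134 replicate 2 stands above replicates 1 and 3 in ISG15, IFIT3, OAS1, DDX58, SAMD9, IFITM3, IFI44, LGALS3BP and UBE2L6.

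With siSRSF1-3, 0 of the 33 genes rose and 1 fell (3.03%), beside 0.331% of all genes tested called higher and 0.929% called lower by limma. The gene that fell was IFIT3, which encodes a protein that binds viral RNA together with IFIT1. With p left unadjusted, under 0.05, and the 2-fold minimum kept, 2 genes were higher (ISG20 and IFI35, 6.06% beside 7.57% of all genes) and 7 lower (IRF9, USP18, OAS1, OAS3, IFIT3, SAMD9 and SAMD9L, 21.2% beside 7.24%), and voom on recovered reads called 0 higher (beside 1%) and 3 lower (9.09%, beside 2.34%). The median log2 fold change was -0.27, with 9 positive and 24 negative, beside -0.011 over all genes. Every siSRSF1-3 library lay above blank in 2 genes (6.06%, beside 19.2% of all genes) and below blank in 13 (39.4%, beside 18%). Without siSRSF1-3 replicate 3, whose values differ most from those of the other 2, the counts were 3 higher (9.09%, beside 12.5% of all genes) and 8 lower (24.2%, beside 11.4%), and without any 1 of the other 5 libraries of the comparison they were 0 and 0. Over all genes these fits also called few, with at most 0.0057% higher and with 0.16% lower without blank replicate 1, 0.0684% without siSRSF1-3 replicate 1 and 0% without any of the other 3.

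IFIT3 lies at chr10:89327894-89340971, plus strand. Its level was 2.33, 2.29 and 2.32 FPKM in blank, 1.37, 1.74 and 1.64 in siSRSF1-2, 0.618, 0.626 and 0.765 in siSRSF1-3 and 0.288, 1.30 and 0.490 in OE-LINC01134 cells. The blank libraries lay close together, and each treated library was below them. The log2 fold change was -0.52 (SE 0.12, adjusted p = 0.0236) with siSRSF1-2, -1.65 (SE 0.22, adjusted p = 0.043) with siSRSF1-3 and -1.82 (SE 0.45, adjusted p = 0.0826) with OE-LINC01134. The siSRSF1-3 call ended without any 1 of the libraries other than siSRSF1-3 replicate 3, with adjusted p of 0.0760 to 0.219, and it held without that replicate, at 0.0101.

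IFIT1, IFIT2 and IFIT3 overlap LIPA, the gene of lysosomal acid lipase, which is on the other strand, and whether the reads were counted by strand is not given in the sources used here. LIPA was the more abundant gene, at 10.2, 9.72 and 10.2 FPKM in blank, 7.61, 7.83 and 8.23 in siSRSF1-2, 2.39, 2.79 and 3.66 in siSRSF1-3 and 4.24, 6.202 and 4.34 in OE-LINC01134 cells. It too was lower in every treated library, with log2 fold changes of -0.35 (SE 0.065, adjusted p = 0.0134), -1.76 (SE 0.20, adjusted p = 0.0356) and -1.04 (SE 0.17, adjusted p = 0.0486). The overlap is one of gene spans, and whether exons overlap was not examined. Without strand, reads from any shared stretch could not be told apart, and the part of LIPA in the IFIT3 values was not tested.

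With OE-LINC01134, 0 of the 33 genes were called higher and 0 lower by limma, beside 0.257% and 0.593% of all genes tested. With the unadjusted p and the 2-fold minimum, 0 were higher (beside 2.45% of all genes) and 7 lower (DDX58, OAS1, IFIT3, ISG15, HERC6, BST2 and IFI6, 21.2% beside 5%), and voom on recovered reads called 0 higher (beside 0.576%) and 3 lower (9.09%, beside 1.41%). The median log2 fold change was -0.29, with 8 positive and 25 negative, beside 0.053 over all genes. Each OE-LINC01134 library lay above blank in 4 genes (12.1%, beside 16.8% of all genes) and below blank in 10 (30.3%, beside 13.8%). Without OE-LINC01134 replicate 2 the counts were 0 higher (beside 2.91% of all genes) and 8 lower (24.2%, beside 5.87%), namely IRF1, DDX58, OAS1, IFIT3, ISG15, HERC6, BST2 and IFI6, and without blank replicate 1 they were 0 higher (beside 1.81% of all genes) and 3 lower (9.09%, beside 3.68%).

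**Figure D3:**
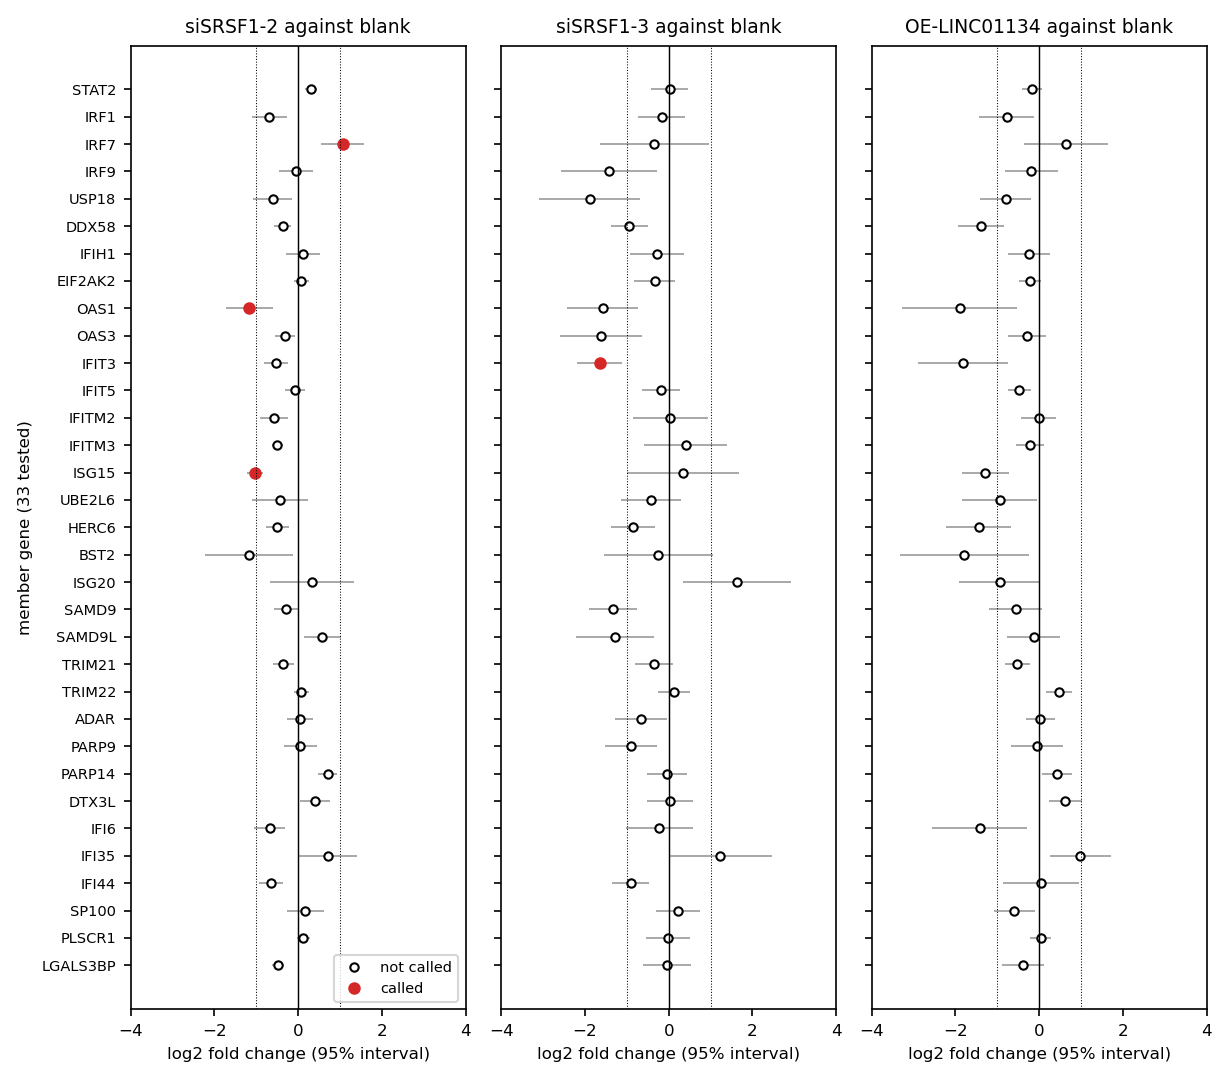
Log2 fold change against blank (horizontal axis, with its 95% interval from limma) of the 33 interferon-stimulated genes tested (vertical axis, in order of role) with siSRSF1-2, siSRSF1-3 and OE-LINC01134. Filled red points passed the test, dotted lines mark 2-fold, and the called genes are IRF7, OAS1 and ISG15 in the first panel and IFIT3 in the second.

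The 95% intervals of limma bound how large a rise these libraries could hide. The interval ended below a 2-fold rise in 29 of the 33 genes with siSRSF1-2 (not in IRF7, ISG20, SAMD9L and IFI35), in 28 with siSRSF1-3 (not in IFITM3, ISG15, BST2, ISG20 and IFI35) and in 30 with OE-LINC01134 (not in IRF7, DTX3L and IFI35). The intervals lay wholly below 0 in 15, 12 and 13 genes and wholly above 0 in 5, 2 and 4. None of these interval counts was made over all genes tested, so they have no background share beside them and do not set the 33 genes apart. The intervals are not adjusted for the number of genes.

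Among the regulators, STAT2, which acts with IRF9, was the most abundant gene. It measured 12.7, 13.4 and 13.9 FPKM in blank, 16.6, 16.5 and 16.5 in siSRSF1-2, 15.6, 11.2 and 14.5 in siSRSF1-3 and 11.8, 11.5 and 12.3 in OE-LINC01134 cells. All siSRSF1-2 libraries exceeded blank and all OE-LINC01134 libraries lay below it, by small amounts, and siSRSF1-3 straddled it, with log2 fold changes of 0.31 (SE 0.060, adjusted p = 0.015), -0.17 (SE 0.10, adjusted p = 0.317) and 0.026 (SE 0.19, adjusted p = 0.933). IRF9, the DNA-binding part of that complex with STAT2, measured 0.847, 0.742 and 0.886 FPKM in blank, 0.890, 0.723 and 0.765 in siSRSF1-2, 0.0941, 0.311 and 0.397 in siSRSF1-3 and 0.646, 0.965 and 0.572 in OE-LINC01134 cells. Its siSRSF1-3 libraries were all below every other library, with a log2 fold change against blank of -1.44 (SE 0.48, adjusted p = 0.124) that did not pass the test.

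USP18, the protease that removes ISG15 and blocks IFNAR2 signaling, stood at 0.899, 1.21 and 1.36 FPKM in blank, 0.703, 0.668 and 0.768 in siSRSF1-2, 0.0719, 0.406 and 0.331 in siSRSF1-3 and 0.502, 0.705 and 0.641 in OE-LINC01134 cells. All treated libraries lay below blank, lowest in siSRSF1-3 replicate 1. The log2 fold changes were -0.61 (SE 0.19, adjusted p = 0.0633) with siSRSF1-2, -1.89 (SE 0.51, adjusted p = 0.0924) with siSRSF1-3 and -0.80 (SE 0.26, adjusted p = 0.119) with OE-LINC01134. IRF1, a transcription factor induced by interferon gamma, had log2 fold changes of -0.69 (SE 0.17, adjusted p = 0.0329), -0.17 (SE 0.24, adjusted p = 0.641) and -0.78 (SE 0.28, adjusted p = 0.148) in the same order.

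Of the RNA sensors, DDX58 differed most from blank. It lies at chr9:32455705-32526324, minus strand, and its level was 8.09, 7.09 and 7.82 FPKM in blank, 5.54, 6.25 and 5.90 in siSRSF1-2, 4.58, 3.31 and 4.05 in siSRSF1-3 and 2.43, 4.15 and 2.34 in OE-LINC01134 cells. Each of the 9 treated libraries lay below the lowest blank library, and the OE-LINC01134 replicates 1 and 3 were lowest. The log2 fold change was -0.37 (SE 0.085, adjusted p = 0.0239) with siSRSF1-2, -0.94 (SE 0.19, adjusted p = 0.0568) with siSRSF1-3 and -1.39 (SE 0.23, adjusted p = 0.0501) with OE-LINC01134, the last at the edge of the threshold: the adjusted p over the alternatives ran from 0.00410 without OE-LINC01134 replicate 2 to 0.742.

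IFIH1 measured 1.39, 1.91 and 2.01 FPKM in blank, 1.92, 2.08 and 1.70 in siSRSF1-2, 1.07, 1.67 and 1.64 in siSRSF1-3 and 1.30, 1.71 and 1.40 in OE-LINC01134 cells, so the groups overlapped in each comparison with blank. Its 95% intervals on the log2 scale were -0.30 to 0.52, -0.92 to 0.37 and -0.74 to 0.25. EIF2AK2 had log2 fold changes of 0.072 (SE 0.074, adjusted p = 0.504), -0.33 (SE 0.21, adjusted p = 0.302) and -0.22 (SE 0.11, adjusted p = 0.249), and it overlaps GPATCH11 on the other strand. DHX58, which encodes the regulatory helicase LGP2, had 23, 14, 13 and 15 reads over the 3 libraries of blank, siSRSF1-2, siSRSF1-3 and OE-LINC01134 and was not tested.

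The OAS genes make 2'-5' oligoadenylates when they bind base-paired RNA, and OAS1, OAS3 and OAS2 lie side by side on chromosome 12. OAS3 stood at 3.36, 3.24 and 3.201 FPKM in blank, 2.33, 2.79 and 2.75 in siSRSF1-2, 0.618, 0.758 and 2.04 in siSRSF1-3 and 2.17, 3.40 and 2.51 in OE-LINC01134 cells. The siSRSF1-2 and siSRSF1-3 libraries were all below blank, most so siSRSF1-3 replicates 1 and 2, while OE-LINC01134 replicate 2 was the highest of all 12. Its log2 fold changes were -0.31 (SE 0.10, adjusted p = 0.0667), -1.62 (SE 0.41, adjusted p = 0.0847) and -0.29 (SE 0.19, adjusted p = 0.353). OASL, a family member that binds RIG-I and lies elsewhere on the chromosome, was not tested: its values were 0.544, 0.9003 and 1.02 FPKM in blank, 0.188, 0.279 and 0.265 in siSRSF1-2, 0.392, 0.313 and 0.128 in siSRSF1-3 and 0.0589, 0.729 and 0.0398 in OE-LINC01134 cells. The OE-LINC01134 value of replicate 2 lay in the blank range and those of replicates 1 and 3 were the lowest of the 12. OAS2 summed to 162 reads in blank, 115 in siSRSF1-2, 61 in siSRSF1-3 and 31 in OE-LINC01134.

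The 4 IFIT genes lie together on chromosome 10. IFIT1, whose protein holds RNA that lacks a methylated cap, measured 0.830, 0.511 and 0.490 FPKM in blank, 0.355, 0.323 and 0.306 in siSRSF1-2, 0.199, 0.290 and 0.292 in siSRSF1-3 and 0.277, 0.730 and 0.212 in OE-LINC01134 cells. IFIT2 measured 0.440, 0.506 and 0.395 FPKM in blank, 0.238, 0.289 and 0.131 in siSRSF1-2, 0, 0.0480 and 0.102 in siSRSF1-3 and 0.0757, 0.357 and 0.0938 in OE-LINC01134 cells. Neither was tested, both were lower in every siRNA library than in every blank library, and OE-LINC01134 replicate 2 lay above replicates 1 and 3 in both. The share of all genes under the filter with such an order was not computed. IFIT5, the most abundant of the 4, had log2 fold changes of -0.084 (SE 0.099, adjusted p = 0.565), -0.19 (SE 0.19, adjusted p = 0.516) and -0.47 (SE 0.12, adjusted p = 0.0854).

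The IFITM genes encode membrane proteins that hinder viral entry, and they are near-identical in sequence, so reads may have been split among them. IFITM3 stood at 54.3, 52.9 and 54.5 FPKM in blank, 36.5, 38.5 and 39.2 in siSRSF1-2, 126, 76.4 and 37.5 in siSRSF1-3 and 45.2, 55.5 and 39.0 in OE-LINC01134 cells. Every siSRSF1-2 library was below blank, and siSRSF1-3 ranged from below blank in replicate 3 to above it in replicates 1 and 2, with log2 fold changes of -0.50 (SE 0.054, adjusted p = 0.00287) and 0.40 (SE 0.42, adjusted p = 0.531). With OE-LINC01134 the groups overlapped, at -0.23 (SE 0.14, adjusted p = 0.342). IFITM2 had log2 fold changes of -0.57 (SE 0.14, adjusted p = 0.0274), 0.042 (SE 0.38, adjusted p = 0.948) and -0.013 (SE 0.18, adjusted p = 0.972). IFITM1, which overlaps IFITM2 on the same strand, held 14, 1, 9 and 5 reads in blank, siSRSF1-2, siSRSF1-3 and OE-LINC01134 and was not tested.

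ISG15 is attached to proteins by UBE2L6, its conjugating enzyme, and the ligase HERC5, of which HERC6 is a relative. HERC6 measured 1.56, 1.79 and 1.65 FPKM in blank, 1.15, 1.12 and 1.17 in siSRSF1-2, 0.933, 0.849 and 0.853 in siSRSF1-3 and 0.363, 0.929 and 0.471 in OE-LINC01134 cells. All treated libraries were below every blank library. Its log2 fold changes were -0.50 (SE 0.11, adjusted p = 0.0239), -0.85 (SE 0.22, adjusted p = 0.0883) and -1.44 (SE 0.33, adjusted p = 0.0734). UBE2L6, singled out after its values were seen, measured 9.37, 18.6 and 19.1 FPKM in blank, 10.8, 10.8 and 11.4 in siSRSF1-2, 10.5, 12.6 and 10.3 in siSRSF1-3 and 6.58, 12.2 and 5.68 in OE-LINC01134 cells. Blank replicate 1 was below every siRNA library, whereas blank replicates 2 and 3 were above every treated library, and the log2 fold changes were -0.44 (SE 0.28, adjusted p = 0.281), -0.43 (SE 0.30, adjusted p = 0.356) and -0.95 (SE 0.37, adjusted p = 0.173). HERC5 had 45 reads in blank, of which blank replicate 1 held 0, and 0, 7 and 2 in siSRSF1-2, siSRSF1-3 and OE-LINC01134.

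Of the 11 restriction factors, 7 were tested. SAMD9, which restricts poxviruses, stood at 1.80, 1.55 and 1.84 FPKM in blank, 1.35, 1.36 and 1.51 in siSRSF1-2, 0.610, 0.591 and 0.669 in siSRSF1-3 and 0.891, 1.68 and 0.970 in OE-LINC01134 cells. The siSRSF1-2 and siSRSF1-3 libraries lay below blank, with the siSRSF1-3 ones close together, and OE-LINC01134 replicate 2 lay within the blank range. Its log2 fold change was -0.28 (SE 0.12, adjusted p = 0.135) with siSRSF1-2, -1.34 (SE 0.24, adjusted p = 0.0512) with siSRSF1-3 and -0.56 (SE 0.26, adjusted p = 0.226) with OE-LINC01134. The neighbouring relative SAMD9L measured 1.159, 1.45 and 1.20 FPKM in blank, 1.52, 2.14 and 2.22 in siSRSF1-2, 0.293, 0.397 and 0.809 in siSRSF1-3 and 0.967, 1.66 and 0.932 in OE-LINC01134 cells. It was above blank in each siSRSF1-2 library and below blank in each siSRSF1-3 library, with log2 fold changes of 0.58 (SE 0.18, adjusted p = 0.0636) and -1.28 (SE 0.39, adjusted p = 0.108).

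TRIM21, a cytosolic antibody receptor and ubiquitin ligase, measured 12.4, 11.1 and 11.4 FPKM in blank, 7.87, 9.85 and 9.63 in siSRSF1-2, 10.9, 8.97 and 7.61 in siSRSF1-3 and 7.57, 9.17 and 7.49 in OE-LINC01134 cells. All 9 treated libraries were below blank, with log2 fold changes of -0.35 (SE 0.11, adjusted p = 0.0551), -0.35 (SE 0.19, adjusted p = 0.245) and -0.53 (SE 0.13, adjusted p = 0.0791). ADAR stood at 27.6, 20.1 and 21.1 FPKM in blank, 22.5, 23.9 and 23.6 in siSRSF1-2, 12.5, 11.8 and 20.02 in siSRSF1-3 and 22.1, 25.1 and 22.4 in OE-LINC01134 cells. Its siSRSF1-3 replicates 1 and 2 were the lowest of the 12 libraries, at a log2 fold change for the group of -0.66 (SE 0.26, adjusted p = 0.155). TRIM22, which restricts retroviruses and overlaps TRIM5 on the other strand, had log2 fold changes of 0.075 (SE 0.071, adjusted p = 0.471), 0.12 (SE 0.16, adjusted p = 0.628) and 0.47 (SE 0.13, adjusted p = 0.0953).

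ISG20, an RNA exonuclease, and BST2, which encodes the virion-retaining protein tetherin, were singled out after their values were seen. ISG20 measured 1.31, 3.73 and 4.09 FPKM in blank, 3.49, 3.58 and 3.27 in siSRSF1-2, 14.7, 9.43 and 4.70 in siSRSF1-3 and 1.38, 1.36 and 1.36 in OE-LINC01134 cells. Every siSRSF1-3 library exceeded every blank library, with a log2 fold change of 1.63 (SE 0.55, adjusted p = 0.123), and blank replicate 1 was at the level of OE-LINC01134. BST2 measured 0.871, 2.64 and 2.68 FPKM in blank, 0.778, 0.666 and 0.857 in siSRSF1-2, 2.60, 1.72 and 0.802 in siSRSF1-3 and 0.278, 1.24 and 0.250 in OE-LINC01134 cells. Blank replicate 1 was close to siSRSF1-2, and the log2 fold changes were -1.17 (SE 0.43, adjusted p = 0.0928), -0.25 (SE 0.55, adjusted p = 0.776) and -1.79 (SE 0.65, adjusted p = 0.149). The untested factors MX1, MX2, RSAD2 and CMPK2 had blank sums of 101, 33, 15 and 95 reads. MX1 held 89 in siSRSF1-2, 78 in siSRSF1-3 and 76 in OE-LINC01134, and RSAD2 held 13, 13 and 5.

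PARP9 and DTX3L, neighbours on opposite strands whose proteins form a complex that modifies histones, and PARP14, an ADP-ribosyltransferase beside them on chromosome 3, all had positive log2 fold changes with siSRSF1-2, while 1 of the 3 was positive with siSRSF1-3 and 2 with OE-LINC01134. PARP14 measured 4.29, 5.18 and 5.14 FPKM in blank, 7.84, 8.23 and 7.89 in siSRSF1-2, 4.30, 4.15 and 5.78 in siSRSF1-3 and 6.86, 5.58 and 7.18 in OE-LINC01134 cells. All siSRSF1-2 and all OE-LINC01134 libraries exceeded blank, at 0.71 (SE 0.094, adjusted p = 0.00484) and 0.42 (SE 0.15, adjusted p = 0.149) on the log2 scale, while siSRSF1-3 overlapped with blank at -0.048 (SE 0.20, adjusted p = 0.885). PARP9 measured 2.89, 2.01 and 2.17 FPKM in blank, 2.19, 2.47 and 2.61 in siSRSF1-2, 1.03, 1.05 and 1.56 in siSRSF1-3 and 1.78, 3.23 and 1.96 in OE-LINC01134 cells, with the siSRSF1-3 libraries below all others and a log2 fold change there of -0.91 (SE 0.26, adjusted p = 0.1). The log2 fold changes of DTX3L were 0.41 (SE 0.15, adjusted p = 0.0913), 0.030 (SE 0.23, adjusted p = 0.939) and 0.62 (SE 0.16, adjusted p = 0.089). The 2 genes overlap, so reads may have been split between them.

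The IFI genes did not move as a block. IFI44 measured 7.64, 6.02 and 6.51 FPKM in blank, 4.66, 3.84 and 4.22 in siSRSF1-2, 3.95, 3.53 and 3.13 in siSRSF1-3 and 4.86, 13.4 and 5.01 in OE-LINC01134 cells. It lay below blank in all siRNA libraries and in OE-LINC01134 replicates 1 and 3, while OE-LINC01134 replicate 2 was the highest of the 12, and its log2 fold changes were -0.65 (SE 0.12, adjusted p = 0.0125), -0.91 (SE 0.18, adjusted p = 0.0587) and 0.043 (SE 0.39, adjusted p = 0.954). IFI6 measured 35.4, 50.6 and 50.7 FPKM in blank, 26.2, 29.6 and 28.5 in siSRSF1-2, 55.0, 43.2 and 24.0 in siSRSF1-3 and 11.8, 37.7 and 10.5 in OE-LINC01134 cells, with OE-LINC01134 replicates 1 and 3 lowest and replicate 2 within the blank range. Its log2 fold changes were -0.68 (SE 0.15, adjusted p = 0.0235), -0.22 (SE 0.34, adjusted p = 0.671) and -1.42 (SE 0.48, adjusted p = 0.132). IFI35 had positive log2 fold changes, 0.70 (SE 0.29, adjusted p = 0.128), 1.23 (SE 0.52, adjusted p = 0.172) and 0.98 (SE 0.31, adjusted p = 0.117), from a blank level of 0.415 ± 0.113 FPKM (SD, n = 3), and none passed the test. IFI44L and IFI27 were not tested: they held 355 and 97 reads in blank, 341 and 80 in siSRSF1-2, 188 and 130 in siSRSF1-3, and 541 and 84 in OE-LINC01134.

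LGALS3BP measured 90.8, 89.4 and 91.9 FPKM in blank, 63.4, 68.1 and 63.1 in siSRSF1-2, 110.2, 92.6 and 67.4 in siSRSF1-3 and 57.3, 98.6 and 58.7 in OE-LINC01134 cells. All siSRSF1-2 libraries and OE-LINC01134 replicates 1 and 3 were below blank, OE-LINC01134 replicate 2 was above it, and siSRSF1-3 ran from above to below. The log2 fold changes were -0.48 (SE 0.055, adjusted p = 0.00329), -0.039 (SE 0.24, adjusted p = 0.92) and -0.39 (SE 0.21, adjusted p = 0.288), so the siSRSF1-2 difference was under 2-fold in size. Its adjusted p from limma ran from 0.000433 to 0.9999 over the alternatives. The alternative that averaged near-identical libraries left siSRSF1-2 as 1 library, so that fit holds no spread within siSRSF1-2. SP100, a nuclear body protein, and PLSCR1, a phospholipid scramblase, had log2 fold changes between -0.60 and 0.22 and between -0.018 and 0.12 over the 3 comparisons with blank, none with an adjusted p under 0.05. The GTPase genes GBP1 and GBP2 were not tested: GBP2 held 399 reads in blank, 102 in siSRSF1-2, 103 in siSRSF1-3 and 143 in OE-LINC01134, and GBP1 held 89, 49, 25 and 69. XAF1 and EPSTI1 had 4 and 4 reads in blank and no more in any other group.

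Over all 17 untested genes, the reads per library summed to 626, 675 and 804 in blank, 337, 370 and 491 in siSRSF1-2, 235, 307 and 323 in siSRSF1-3, and 353, 664 and 317 in OE-LINC01134 replicates 1 to 3. The siRNA libraries were all below blank in this sum, and OE-LINC01134 replicate 2 was within the blank range. As a sum of FPKM the same genes gave 4.15, 4.60 and 4.77 in blank, 1.99 to 2.32 in siSRSF1-2, 1.94 to 2.21 in siSRSF1-3, and 1.88, 4.32 and 1.63 in OE-LINC01134. An exact 2-sided permutation test of any single gene, with 3 libraries against 3, cannot give a p below 0.1, which is what every gene with groups that do not overlap received.

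The 2 siRNAs were also compared with each other, on 3 libraries each. By limma 0 of the 33 genes were called higher and 0 lower with siSRSF1-3, beside 0.0342% and 0.0513% of all genes tested. With the unadjusted p and the 2-fold minimum, ISG20 was higher (3.03%, beside 9.01% of all genes) and 7 genes were lower (21.2%, beside 7.42%): IRF7, IRF9, USP18, OAS3, IFIT3, SAMD9 and SAMD9L. On recovered reads voom called 0 higher (beside 0.319%) and 1 lower (3.03%, beside 0.308% of all genes). The siSRSF1-3 libraries lay above siSRSF1-2 in 2 genes (6.06%, beside 27% of all genes) and below in 17 (51.5%, beside 27.6%). The median log2 difference was -0.28, beside -0.021 over all genes. The smallest p-values were those of SAMD9, at -1.06 (SE 0.18, adjusted p = 0.0712), IFIT3, at -1.13 (SE 0.20, adjusted p = 0.0712), SAMD9L, at -1.86 (SE 0.36, adjusted p = 0.0725), PARP14, at -0.76 (SE 0.16, adjusted p = 0.0749), and PARP9, at -0.96 (SE 0.21, adjusted p = 0.0749). For ISG15 the difference was 1.37 (SE 0.59, adjusted p = 0.132), with an interval of -0.081 to 2.81, which is too wide to say whether the siRNAs differed. Without siSRSF1-3 replicate 3 the counts were 6 higher (18.2%, beside 16% of all genes) and 7 lower (21.2%, beside 14.5%).

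The 3 comparisons with blank share the same blank libraries, so their values are set side by side and not counted as independent. Library by library, the median log2 difference of the 33 genes from the blank mean was -0.34, -0.24 and -0.19 in siSRSF1-2, -0.30, -0.27 and -0.54 in siSRSF1-3, and -0.50, -0.13 and -0.47 in OE-LINC01134 replicates 1 to 3. The same medians over all genes tested ran from -0.029 to 0.071. All 9 treated libraries thus had a median below the blank mean, with OE-LINC01134 replicate 2 nearest to it. Of the 33 genes, 25, 11 and 23 lay below every blank library in OE-LINC01134 replicates 1, 2 and 3, beside 31.1%, 25.4% and 31.4% of all genes tested, and 6, 12 and 6 lay above every blank library, beside 38.2%, 28.4% and 38.2%. In siSRSF1-2 16, 18 and 16 lay below, beside 31.3%, 31.9% and 31.6%, and 10, 9 and 9 above, beside 33.1%, 33.6% and 33.4%. In siSRSF1-3 18, 19 and 20 lay below, beside 42.2%, 39.0% and 30.4%, and 10, 9 and 5 above, beside 41%, 38.7% and 34.9%.

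OE-LINC01134 replicate 2 was set against the mean of replicates 1 and 3 as a description. It was over 2-fold higher in 6 of the 33 genes (BST2, OAS1, IFI6, IFIT3, IFI44 and HERC6) and over 2-fold lower in IRF7, that is 21.2% of the 33 beside 11.3% of all genes tested. The median difference of the 33 genes was 0.42 on the log2 scale, beside -0.034 over all genes. Its LINC01134 level was the highest of the 3. Blank replicate 1 was over 2-fold lower than blank replicates 2 and 3 in BST2, ISG20 and UBE2L6 and higher in none, 9.09% beside 11.1% of all genes, and the median difference of the 33 genes was 0.013.

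The siSRSF1-3 values were also set against gene length. ISG15, IFITM3, IFITM2 and BST2, with 941, 1348, 1543 and 1119 bases of counted length, were higher in replicates 1 and 2 than in replicate 3, and OAS3, ADAR and PARP9, with 8251, 9691 and 8938 bases, were lower there. Length did not order all genes: ISG20 and IRF1, with 7363 and 7799 bases, were also higher in replicates 1 and 2. Of the 16 genes longer than the median of 4353 bases, 3 were higher in both of these replicates than in replicate 3 and 7 were lower in both, and of the other 17 genes 10 were higher and 4 lower. Over the 33 genes, which share each library, Spearman's rho of the difference from blank with length was -0.32, -0.22 and 0.43 in siSRSF1-3 replicates 1 to 3, beside -0.17, -0.18 and -0.079 over all genes tested. In siSRSF1-2 it was 0.51, 0.50 and 0.53 over the 33 genes beside 0.029 to 0.063 over all genes, and in OE-LINC01134 it was 0.11 to 0.27 beside -0.013 to 0.0080. With a length trend taken out of each library, a choice made after seeing the data, the median of the 33 genes was -0.37 with siSRSF1-3 and IFIT3 and IFI44 were called lower. Over all 17538 genes that fit had a median of 0.046 and called 124 higher and 217 lower.

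**Figure D4:**
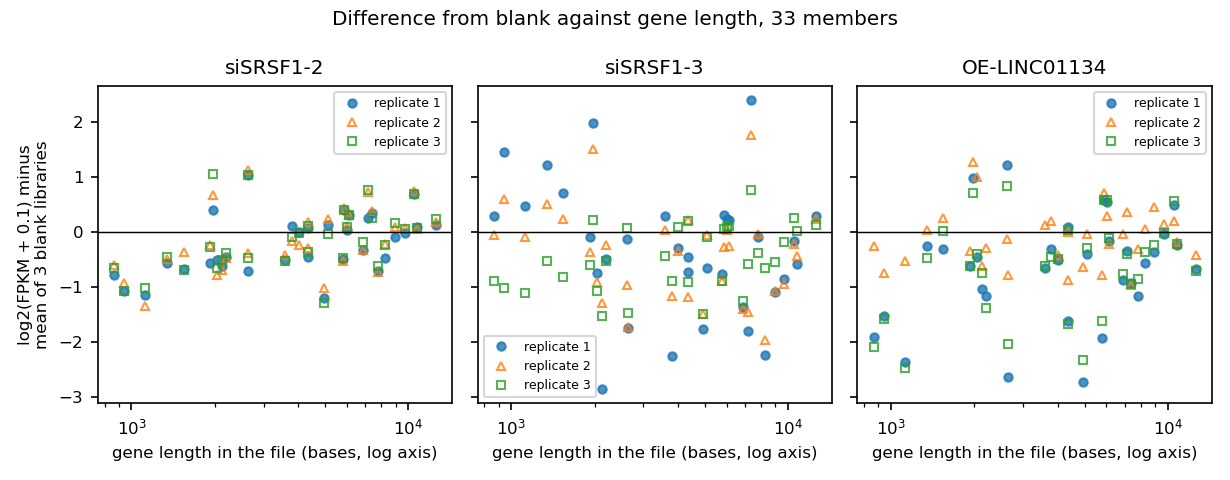
Difference of each treated library from the blank mean on log2(FPKM + 0.1) (vertical axis) against the counted gene length in bases (horizontal log axis) for the 33 interferon-stimulated genes tested, in 3 panels by group with a marker for each replicate. In siSRSF1-3 the shortest genes were above blank in replicate 1 and below it in replicate 3, and in siSRSF1-2 the shortest genes lay below blank in all replicates.

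Scaling changed some signs with siSRSF1-3. With every library brought to the same FPKM sum, the median of all genes moved to -0.43 with siSRSF1-3, 0.15 with siSRSF1-2 and 0.14 with OE-LINC01134, and that of the 33 genes to -0.67, -0.16 and -0.20, so relative to all genes the 33 lay at -0.24, -0.31 and -0.34. ISG15 and IFITM3 with siSRSF1-3 then became -0.10 and -0.044. On the deposited scale the same relative medians were -0.26, -0.30 and -0.34.

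Upstream of these genes, 42 other genes of the interferon pathway were followed, of which 23 were tested. With siSRSF1-2, 0 were called higher and 2 lower, with siSRSF1-3 0 and 1, and with OE-LINC01134 0 and 0 by limma, beside 2.73%, 0.929% and 0.593% of all genes tested called lower. The shares of all genes called higher were 2.22%, 0.331% and 0.257%. With p left unadjusted and the 2-fold minimum kept, 0 were higher in each comparison and 2, 4 and 2 were lower, beside 3.43%, 7.24% and 5% of all genes, and voom on recovered reads called 0 higher in each and 3, 2 and 0 lower, beside 3.01%, 2.34% and 1.41%. Of all genes, 3.06%, 7.57% and 2.45% were higher at the unadjusted p, and 2.59%, 1% and 0.576% by voom. Without the fold minimum, 7 of the 23 were higher with siSRSF1-2 (beside 14% of all genes) and 3 lower (beside 12.8%). Every siSRSF1-2 library lay above blank in 7 of the 23 and below in 7, beside 25.3% and 24.2% of all genes. TRIM25, listed under nucleic acid sensing, measured 15.9, 20.7 and 20.8 FPKM in blank and 31.0, 30.1 and 31.3 in siSRSF1-2. It measured 17.9, 22.1 and 30.8 in siSRSF1-3 and 19.2, 19.2 and 20.8 in OE-LINC01134 cells, where it stayed within the blank range. Of the 12 sensing genes tested, 4 had positive and 8 negative log2 fold changes with siSRSF1-2. SOCS3, a feedback inhibitor of cytokine receptors, measured 6.18, 3.82 and 4.003 FPKM in blank, 1.67, 1.498 and 1.87 in siSRSF1-2, 0.597, 1.04 and 1.33 in siSRSF1-3 and 1.07, 2.95 and 1.09 in OE-LINC01134 cells, and fell with both siRNAs, by log2 fold changes of -1.39 (SE 0.20, adjusted p = 0.00635) and -2.16 (SE 0.33, adjusted p = 0.0453). IKBKE, a kinase related to TBK1, measured 5.19, 6.10 and 7.08 FPKM in blank, 2.86, 2.74 and 3.35 in siSRSF1-2, 3.96, 2.81 and 1.85 in siSRSF1-3 and 1.54, 4.66 and 1.56 in OE-LINC01134 cells and fell with siSRSF1-2, at -1.01 (SE 0.14, adjusted p = 0.00554). In both genes every treated library lay below every blank library.

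The receptor chain IFNAR1 measured 7.75, 7.61 and 7.69 FPKM in blank, 9.28, 9.32 and 9.74 in siSRSF1-2, 10.3, 7.25 and 7.35 in siSRSF1-3 and 6.01, 5.57 and 5.59 in OE-LINC01134 cells, higher than blank in each siSRSF1-2 library and lower in each OE-LINC01134 library, at 0.29 (SE 0.060, adjusted p = 0.017) and -0.42 (SE 0.11, adjusted p = 0.0839). IFNAR2 was not tested, with 141, 67, 123 and 54 reads in blank, siSRSF1-2, siSRSF1-3 and OE-LINC01134. For IFNGR1, IFNGR2 and IFNLR1, chains of the interferon gamma and lambda receptors, the log2 fold changes ran from -0.88 to 0.20 over the 3 comparisons, none with an adjusted p under 0.05. IL10RB, the other chain of the lambda receptor, held 66, 59, 29 and 33 reads and was not tested.

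The interferon genes themselves stayed near 0 in each group. IFNB1 held 7, 1, 3 and 0 reads in blank, siSRSF1-2, siSRSF1-3 and OE-LINC01134, IFNA1 held 1, 0, 1 and 0, and IFNL1 held 2, 0, 0 and 0. IFNE, an interferon of epithelia whose gene overlaps MIR31HG, held 22, 25, 23 and 30, and IFNK held 1, 2, 1 and 0. The chemokine genes CXCL10 and CXCL11, targets of both interferon classes, held 9 and 19 reads in blank, 5 and 9 in siSRSF1-2, 0 and 2 in siSRSF1-3 and 0 and 0 in OE-LINC01134. A count of 0 in a library allows up to 3 reads, so a low level of any of these RNAs would not have been detectable at this depth. These limits and those of the intervals cover counting and library spread only.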

How the data were processed

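RNA of 12 U2OS libraries was sequenced as 150 bp paired ends after poly-T selection, and the authors deposited 1 table of FPKM per gene and library that names human Ensembl genes. The aligner, the counting and the annotation release are not given in the sources used here, and the labels name mouse genome builds, which were not used. FPKM times gene length came out as whole reads for 100% of values (tolerance 0.01 reads), and the implied library sizes follow median-of-ratios factors over the 12 libraries. Each library thus has a known depth of 26237763 to 32954539 reads on genes.

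Libraries were grouped by their labels. Genes with a mean of at least 0.5 FPKM were fitted on log2(FPKM + 0.1) with limma 3.58.1 in R 4.3.3 (empirical Bayes with trend, 1 fit per comparison), and a gene was called at a Benjamini-Hochberg adjusted p under 0.05 and a fold change over 2. DESeq2, which the study's methods name, was not used here because the authors deposited FPKM, and the recovered reads were tested with voom as an alternative. limma was tested on simulated data. Alternatives covered the pseudocount, filter, scaling, trend, pooled spread, replicate block, voom on recovered reads, each library left out and, added after seeing the data, averaged near-identical libraries and a removed length trend (loess span 0.5). Averaging left siSRSF1-2 as 1 library, so its counts of calls for siSRSF1-2 hold no spread within that group.

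Genes were named by role: all members, with every-library values for those past the threshold, the 5 smallest p in each comparison, the 5 highest in blank cells and 14 defining type I genes. Of the 14, MX1 and RSAD2 have library values in blank cells only. OAS3, UBE2L6, ISG20 and BST2 were in none of these classes and were also given by library. Members and lists were chosen with earlier results of these data known. A search of promoters for motifs was not run. Figures were drawn with matplotlib 3.10.9. 1 of the 42 pathway genes enters the counts of that list but has no values reported here.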

Additional observations from a re-analysis of the deposited data

How the results depend on the processing

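The alternatives changed how many interferon-stimulated genes were called more than they changed the sign of their median, which stayed negative in each comparison under each alternative run. For siSRSF1-2 against blank, with 1 gene called higher and 2 lower, removing the fold minimum gave 3 and 11. A pseudocount of 1, 1 fit over all 4 groups and averaging near-identical libraries each gave 0 and 0, a filter at 1 FPKM gave 0 and 1 (IRF7 and OAS1 are then not tested), no filter gave 5 lower, and scaling to the same FPKM sum or to each library's own read total gave 1 lower. Over all genes tested, these fits called 202, 180, 0, 371, 559, 340 and 426 lower, in that order. Leaving out 1 library gave 0 to 1 higher and 0 to 2 lower, beside 201 to 532 and 331 to 656 of all 17538 genes. The median, -0.28, was -0.18 with a pseudocount of 1 and -0.16 with the same FPKM sum.

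For siSRSF1-3 against blank, with 0 higher and 1 lower, an unadjusted p and 1 fit over all 4 groups each gave 2 and 7. Of all 17538 genes, these called 1327 and 1269, and 1245 and 1177. A pseudocount of 1, no filter, either scaling and averaging gave 0 lower, while eBayes without a trend and the length trend removed gave 2 and voom on recovered reads 3. Over all genes tested, the lower calls were 206 with the pseudocount, 8 with no filter, 0 with the same FPKM sum, 58 with own read totals and 0 with averaging. They were 121 without a trend, 217 with the length trend removed and 411 by voom. Leaving out 1 library gave 0 to 3 higher and 0 to 8 lower, with the highest counts without siSRSF1-3 replicate 3. The median, -0.27, was -0.67 with the same FPKM sum and -0.51 with own read totals, and ran from -0.39 to -0.21 with 1 library left out. For OE-LINC01134, with 0 and 0, the lower count was 7 at an unadjusted p, 4 in 1 fit over all 4 groups, 3 by voom, 2 with the same FPKM sum, and 1 with a pseudocount of 1, a filter at 1 FPKM, own read totals or the length trend removed. Over all genes tested, the lower calls in the same order were 877, 515, 247, 103, 88, 93, 111 and 117. With 1 library left out the lower count ran from 0 to 8, beside 0 to 1029 over all genes, and the median from -0.46 to -0.21.

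For siSRSF1-3 against siSRSF1-2, with 0 and 0, an unadjusted p gave 1 and 7, 1 fit over all 4 groups 2 and 7, and voom 1 lower. Of all 17538 genes, these called 1581 and 1302, 1472 and 1259, and 54 lower. With 1 library left out the counts ran from 0 to 6 and from 0 to 7, and the median, -0.28, was -0.12 with no filter, -0.83 with the same FPKM sum and -0.58 with own read totals. The cause of these changes was not tested. Over all genes, the same FPKM sum turned 389 higher and 479 lower calls into 604 and 340 with siSRSF1-2, 58 and 163 into 1 and 0 with siSRSF1-3, and 45 and 104 into 83 and 103 with OE-LINC01134, and own read totals gave 11 and 58 with siSRSF1-3.

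Libraries of the same number did not deviate together, with correlations of their deviations between -0.1 and 0.1, so the numbers are no pairs. A replicate block gave 0 higher and 1 lower with siSRSF1-2 and 0 lower with siSRSF1-3, and changed no other count. Over all genes it called 300 higher and 381 lower with siSRSF1-2 and 0 and 0 with siSRSF1-3. Over the genes called or among the 5 smallest p in each comparison, of 459 values under the alternatives 379 kept their side of the threshold, 33 lost a call, 47 gained one and 0 changed sign. Over all 33 genes and 4 comparisons, 93 of 2752 values changed sign, in 35 of 132 gene and comparison pairs, with log2 fold changes of at most 0.53 in size in the fit as reported. The 17 genes under the filter were left out by their FPKM, not by a test of depth.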
